A study of Mus musculus with 3 samples.

Results

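The genes described here are 10 folding chaperones and folding factors of the endoplasmic reticulum (ER), chosen by symbol from 31053 measured features: Hspa5, Hsp90b1, Pdia4, Pdia6, Sdf2l1, Calr, Dnajb11, Manf, Creld2 and Hyou1. They were followed through the cell types of mouse dorsal skin in 3 droplet single-cell RNA libraries, 1 per group. The young control mice were 2.5 months old, carried Yap1 fl/fl; Wwtr1 fl/fl, and received tamoxifen by oral gavage at 0.11 mg per g body weight, on 2 consecutive days a week for 4 weeks. The young YAP/TAZ knockout had the same age, floxed alleles and tamoxifen and added R26-CAG-CreER, which drives an inducible Cre recombinase from a ubiquitous promoter, so deletion was not aimed at fibroblasts alone. Old control mice (24 months) were wild-type without tamoxifen, and so differed from the young control in age, in the floxed alleles and in tamoxifen. The series title places the question in fibroblasts and the loss of YAP and TAZ (gene Wwtr1), transcriptional coactivators of the Hippo pathway. The sources used here do not give how many mice each library holds.

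Secreted and membrane proteins fold in the ER, where chaperones hold unfolded chains, lectin chaperones bind their sugars and disulfide isomerases form their crosslinks. When unfolded chains accumulate, 3 sensors in the ER membrane (Ern1, Eif2ak3 and Atf6) start the unfolded protein response (UPR), and the transcription factors ATF6, XBP1 and ATF4 then act on target genes, many of the folding chaperones among them. Skin fibroblasts are a secretory cell type whose main cargo, procollagen, is folded in the ER by general chaperones and by a set of collagen-specific enzymes.

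Members fall into 4 roles. The core chaperone system consists of Hspa5 (BiP, the ER member of the HSP70 family, chr2:34771970-34777547), its cochaperones Dnajb11 (chr16:22857845-22879634) and Sdf2l1 (chr16:17130138-17132383), and its nucleotide exchange factor Hyou1 (chr9:44379490-44392369). Hsp90b1 (GRP94, the ER member of the HSP90 family, chr10:86690209-86705509) and the lectin chaperone Calr (calreticulin, chr8:84841850-84846934) act on later folding steps and store calcium. Pdia4 (chr6:47796141-47813430) and Pdia6 (chr12:17266545-17284770) are protein disulfide isomerases. Manf (chr9:106838312-106891979) and Creld2 (chr15:88819646-88826683) are ER-resident proteins that can be secreted under ER stress. These positions are whole genes in the GENCODE M21 annotation of GRCm38, the assembly that mm10 names.

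The promoters are shown because the ER stress response element, ERSE, is the textbook sequence through which ATF6 and XBP1 reach chaperone genes. The RefSeq promoter table (GRCm38.p6) matched 8 of the 10 members by symbol, and Manf and Hyou1 are named without a sequence. The window searched was the 250 bases before each annotated start. ERSE was searched on both strands as the arms CCAAT and CCACG with 9 bases of any kind between them and was found in 5 of the 8 members, against 0.113% of all 32851 promoters of that length (37 promoters). The 5 members that hold it are printed 5′ to 3′ on the gene's own strand, followed by Sdf2l1, which holds no match, with ERSE matches in capitals. Read on the gene's strand, a match in the reverse orientation begins with CGTGG. The windows are chr2:34771840-34772089 (plus strand) for Hspa5, chr10:86705445-86705694 (minus) for Hsp90b1, chr8:84846932-84847181 (minus) for Calr, chr12:17266339-17266588 (plus) for Pdia6, chr15:88819396-88819645 (plus) for Creld2 and chr16:17132384-17132633 (minus) for Sdf2l1.
Hspa5: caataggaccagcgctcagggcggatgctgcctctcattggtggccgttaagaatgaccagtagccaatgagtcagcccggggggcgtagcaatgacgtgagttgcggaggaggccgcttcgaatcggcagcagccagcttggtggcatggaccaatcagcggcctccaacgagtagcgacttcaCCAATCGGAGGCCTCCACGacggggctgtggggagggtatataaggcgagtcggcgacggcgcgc
Hsp90b1: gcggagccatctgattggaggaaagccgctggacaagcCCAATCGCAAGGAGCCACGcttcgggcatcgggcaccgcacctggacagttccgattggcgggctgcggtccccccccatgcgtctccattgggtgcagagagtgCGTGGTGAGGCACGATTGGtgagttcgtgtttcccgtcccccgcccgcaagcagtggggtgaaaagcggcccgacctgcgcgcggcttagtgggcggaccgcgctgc
Calr: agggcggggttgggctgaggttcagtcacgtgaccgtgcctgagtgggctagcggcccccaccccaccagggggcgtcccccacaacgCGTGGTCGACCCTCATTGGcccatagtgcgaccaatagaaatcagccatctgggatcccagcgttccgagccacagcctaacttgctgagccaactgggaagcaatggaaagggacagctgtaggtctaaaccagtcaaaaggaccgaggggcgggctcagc
Pdia6: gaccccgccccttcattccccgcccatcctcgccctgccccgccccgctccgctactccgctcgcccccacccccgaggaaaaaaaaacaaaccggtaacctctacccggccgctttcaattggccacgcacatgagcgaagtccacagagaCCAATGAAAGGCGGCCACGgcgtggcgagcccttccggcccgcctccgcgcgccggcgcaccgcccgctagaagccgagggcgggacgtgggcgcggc
Creld2: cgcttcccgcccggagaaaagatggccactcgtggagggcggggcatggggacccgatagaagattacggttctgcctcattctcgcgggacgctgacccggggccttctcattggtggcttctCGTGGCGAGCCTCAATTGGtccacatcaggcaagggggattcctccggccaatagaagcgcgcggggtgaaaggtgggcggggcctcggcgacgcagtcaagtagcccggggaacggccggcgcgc
Sdf2l1: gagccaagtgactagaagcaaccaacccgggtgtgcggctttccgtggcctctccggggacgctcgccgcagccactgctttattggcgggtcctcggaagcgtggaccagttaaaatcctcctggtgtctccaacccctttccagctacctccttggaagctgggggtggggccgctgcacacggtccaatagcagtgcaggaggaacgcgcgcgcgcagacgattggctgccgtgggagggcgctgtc

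The match in Hspa5 lay 65 to 47 bases before the RefSeq start, and that in Pdia6 98 to 80 bases before it. Creld2 held its match 126 to 108 bases upstream and Calr 162 to 144 bases upstream, both in reverse orientation. Hsp90b1 alone held 2, at 212 to 194 and, in reverse, at 107 to 89 bases before the start. The GENCODE gene model of Hspa5 begins upstream of the RefSeq start, so its match lies inside that gene model. The first arm of the element, CCAAT, occurred on either strand in 8 of 8 members and in 33.8% of all promoters, and the second arm, CCACG, in 6 of 8 members and 28.3% of promoters. Both counts include the copies inside ERSE. Sdf2l1 held both arms but not at the spacing searched, while Pdia4 and Dnajb11 held only CCAAT. None of the 8 windows held ERSE-II (the arms ATTGG and CCACG with 1 base between them, in 0.0304% of promoters), the UPR element TGACGTGG (0.563%), the ATF4-type element TGATGNAAT (0.816%) or the heat shock element (0.466%). A match is a run of letters and not a measured binding site.

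Levels are CPM, counts per 1000000: the deposited counts of unique molecular identifiers (UMIs) were summed over all cells of a class in a library and set against the class total. Their 95% intervals are exact Poisson intervals, and ratios of libraries carry exact binomial intervals. Both cover counting error only, and with 1 library per group no test across mice was possible. Where intervals above or below 1 are counted, the share over all genes was not computed, so those counts have no background. A gene was called higher or lower by a rule of size, where its mean over the 3 libraries of the class reached 20 CPM, its ratio was 2 or more (or 0.5 or less) and the bound nearer to 1 lay beyond 1.5-fold. The words rose and fell are kept for these calls. Levels are not compared between genes, since they are not per length.

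The filters kept 10784 young control, 8655 knockout and 11108 old control cells, with median depths of 4957, 2083 and 1783 UMIs. The knockout library stood apart: 62.4% of its deposited barcodes exceeded 15% mitochondrial UMIs, against 12.3% and 19.4%, and its kept cells still had a median of 10.3% against 5.01% and 7.19%. It was also the only male library by Xist (0.208 CPM, against 1686 in the young control and 1381 in the old control) and Ddx3y (115 CPM, and no UMI in the others), so genotype and sex cannot be told apart in any comparison with it. In fibroblast-like cells Wwtr1 stood at 25.6 CPM in the knockout against 125 in the young and 121 in the old control, and Yap1 at 51.9 against 59.1 and 52.7. Reads near the 3′ end may lie outside the deleted exons, so these values do not measure deletion. Each pair of libraries shared 43 to 55 cell barcodes after filtering. Of 37 clusters, 27 were named from fixed markers into 12 classes (that of T, NK or innate lymphoid cells is called lymphoid-like), and the unnamed clusters held 5.04%, 45.3% and 36.8% of young control, knockout and old control cells. Class names therefore cover only part of the knockout and old libraries.

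All 10 members were detected in every class of the young control, the library with the deepest cells. Among the named classes, that labelled dendritic or Langerhans-like had the highest level of 8 members, and macrophage or monocyte-like cells that of Hspa5 and Pdia4. The former class is 1 cluster led by Il1b, Tnip3 and Wfdc17, called dendritic-like here, and does not cover Langerhans cells. A separate cluster led by Cd207, the Langerhans cell lectin, stayed unnamed because its keratinocyte marker score lay too close. The summed level of the members in that Cd207 cluster was 1507 CPM in the young control (133 cells), against 2893 in the dendritic-like class, with Hspa5 at 562 against 870 CPM and Sdf2l1 at 30.3 against 120. Hspa5 reached 1103 CPM (1026 to 1185) in macrophage-like cells, 1005 in mast-like and 870 in dendritic-like cells, and was lowest in keratinocyte-like cells at 347 CPM (341 to 354). Hsp90b1 ranged from 716 CPM in dendritic-like to 236 in keratinocyte-like cells, and Calr from 578 CPM in dendritic-like to 214 in pericyte or smooth muscle-like cells. For 6 members the lowest class was the pericyte or smooth muscle-like one. Fibroblast-like cells were the lowest class for Hyou1, at 15.2 CPM against 45.9 in dendritic-like cells.

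Sdf2l1 had a steeper pattern than the others. Its level was 120 CPM (109 to 132) in dendritic-like, 46.5 in macrophage-like and 27.0 in lymphoid-like cells, and 7.01 CPM or less in fibroblast-like cells and in every other stromal and epithelial class, down to 2.08 (0.899 to 4.10) in dermal papilla or sheath-like cells. The highest class stood 57.5-fold above the lowest for Sdf2l1, and 2.20-fold (Dnajb11) to 5.22-fold (Pdia6) for the other members. In the order of classes many neighbours were not told apart: of 110 neighbouring pairs over the 10 members, 92 had overlapping counting intervals in the young control. Dnajb11, Pdia4, Creld2 and Hyou1 had overlaps at all 11 of their steps.

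The order of classes differed between libraries. In the knockout, where dendritic-like, macrophage-like and mast-like cells were too few (under 50), fibroblast-like cells had the highest level of 8 of 10 members, the exceptions being Sdf2l1 (lymphoid-like, 43.5 CPM) and Hyou1 (dermal papilla or sheath-like, 54.1 CPM, against 51.9 in fibroblast-like cells). Hspa5 stood at 1201 CPM in knockout fibroblast-like cells, with intervals apart from the 911 CPM of dermal papilla or sheath-like cells. In the old control, among named classes, dendritic-like cells (79 cells, a summed member level of 2614 CPM) led for 5 members and fibroblast-like cells for Hsp90b1, Pdia4 and Dnajb11. The unnamed Cd207 cluster, with 264 old cells, stood at a summed 1394 CPM. Of the neighbouring pairs, 71 of 80 overlapped in the knockout and 80 of 90 in the old control.

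**Figure D1:**
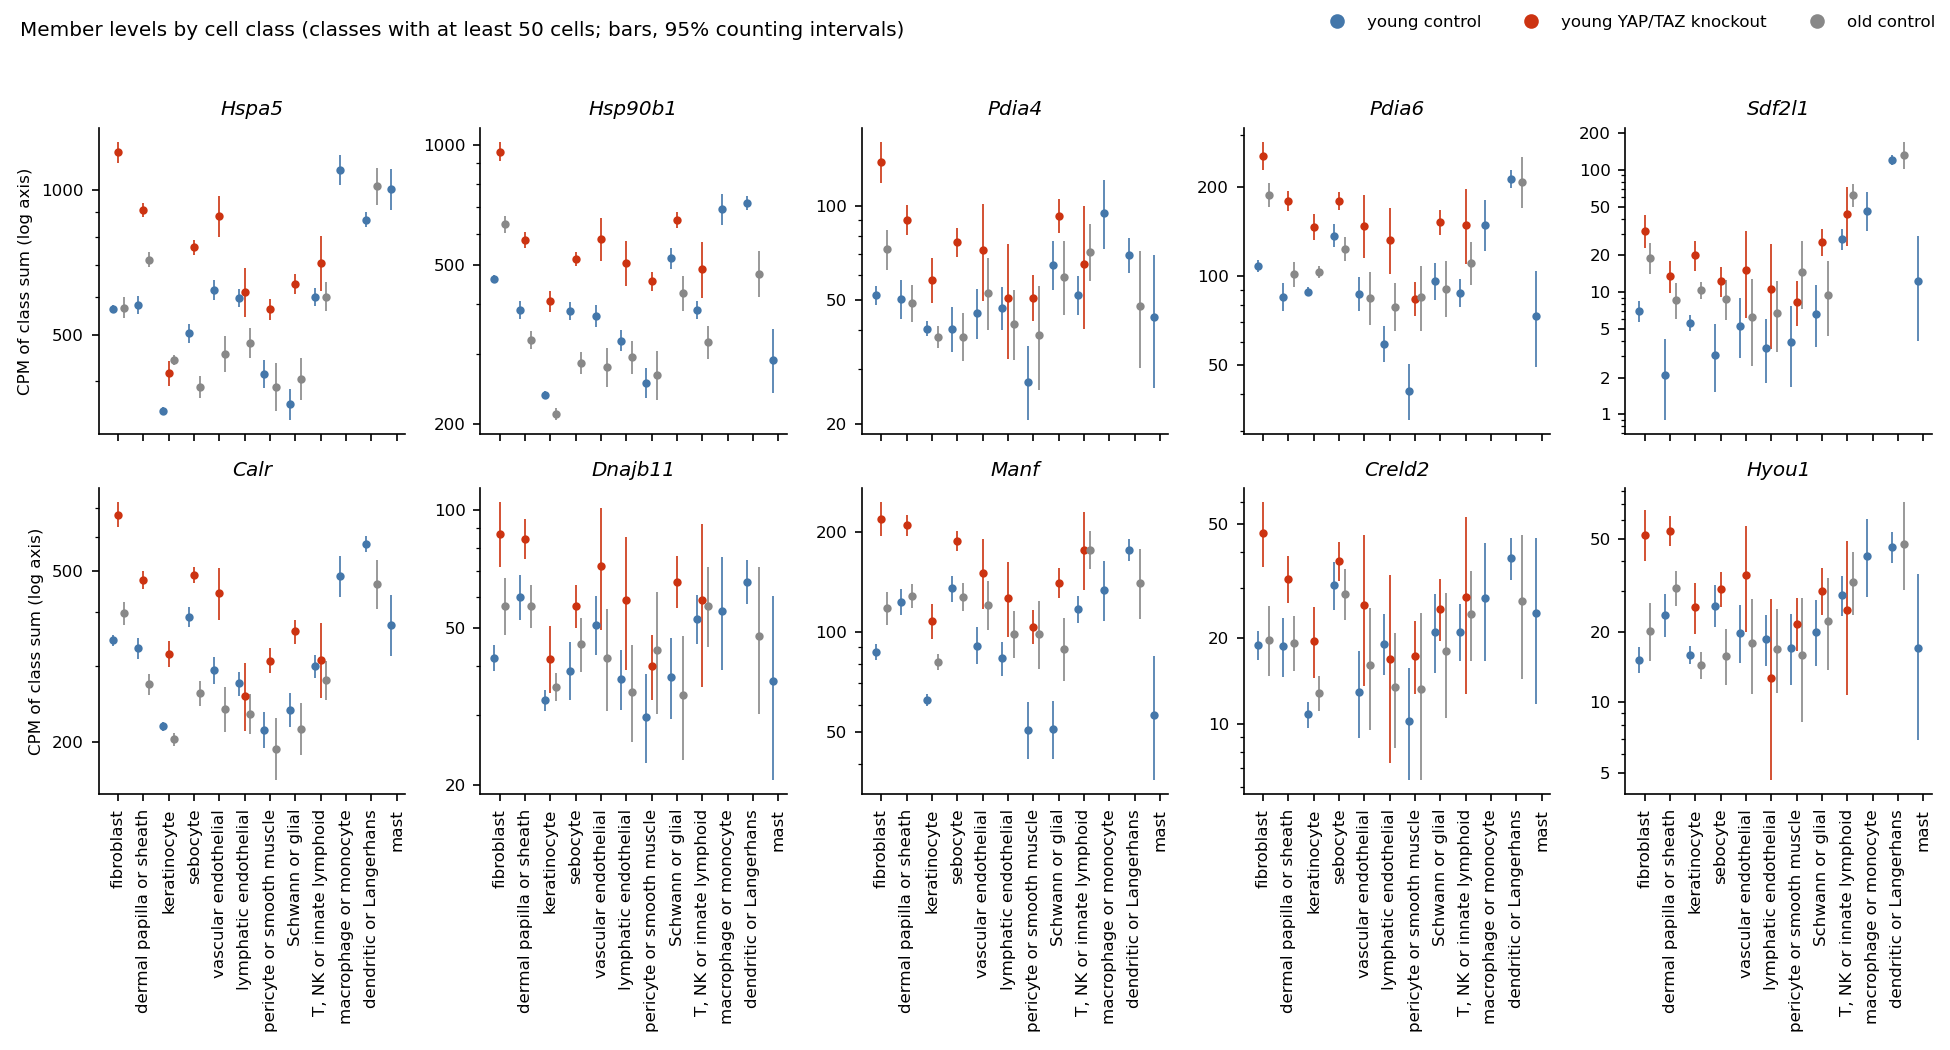
Level of each member (CPM of the class sum, log axis) in each cell class and library, with 95% counting intervals, for classes of at least 50 cells. In the young control the highest point of each member is that of dendritic-like or macrophage-like cells. The knockout point of fibroblast-like cells lies above both control points for all 10 members.

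In fibroblast-like cells all 10 members stood higher in the knockout than in the young control, and 8 of the 9 that could be tested rose by the size rule. The background of such calls was 5.14% of 6240 genes higher and 4.05% lower. Of the 8, Hyou1 and Creld2 reached the mean of 20 CPM only with the knockout included, since their control levels alone average less. Summed over the members the level was 1703 CPM in young control, 3669 in knockout and 2096 in old control cells. Their median ratio of knockout to young control was 2.41 (1.28 as a median log2 ratio, against 0.17 for all genes tested). These values rest on 199 knockout, 2768 young control and 584 old control cells.

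Among the core system, Hspa5 stood at 566 CPM (555 to 578) in young control cells, at 1201 (1142 to 1262) in knockout cells and at 570 (541 to 600) in old control cells. The knockout was 2.12-fold above the young control (2.01 to 2.24) and the 2 controls overlapped. Hyou1, which recharges BiP with ATP, stood at 15.2 CPM in young control, 51.9 in knockout and 20.1 in old control cells, a ratio of 3.42 (2.57 to 4.50). That was the largest ratio of the tested members, but Hyou1 reached the mean of 20 CPM only through its knockout level. Dnajb11, a J-domain partner of BiP, stood at 42.0, 86.8 and 56.9 CPM in the same order, a ratio of 2.06 (1.67 to 2.53). Sdf2l1 stood at 7.01 (5.75 to 8.46), 31.8 (22.8 to 43.1) and 19.0 CPM (14.0 to 25.1). Its ratio of 4.53 (3.08 to 6.55) was the largest of all members, but its mean was under 20 CPM and it was not tested. The knockout was the highest of the 3 libraries for each of these genes, and its interval overlapped that of a control only for Sdf2l1, with the old control.

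Hsp90b1 stood at 462 CPM in young control, 963 in knockout and 632 in old control cells, a knockout ratio of 2.08 (1.96 to 2.21). Calr stood at 344, 676 and 398 CPM and was the 1 tested member that did not pass, with a ratio of 1.96 (1.82 to 2.11) just under the threshold of 2. Of the disulfide isomerases, Pdia4 stood at 51.6, 138 and 72.4 CPM and rose 2.67-fold (2.26 to 3.14), and Pdia6 at 108, 256 and 189 CPM and rose 2.36-fold (2.09 to 2.66). For all 4 genes the order was knockout, old control, young control, with no overlap between the 3 intervals.

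The secretable factors followed the same order of libraries. Manf stood at 86.9 CPM in young control, 219 in knockout and 118 in old control cells and rose 2.52-fold (2.21 to 2.87). Creld2 stood at 18.9, 46.5 and 19.8 CPM and rose 2.46-fold (1.83 to 3.26), with overlapping intervals of its 2 controls. It reached the mean of 20 CPM only through its knockout level.

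The scale bears on these calls. Under division by class totals the median gene tested stood 0.17 higher (log2) in the knockout, and trimmed-mean (TMM) scaling moved that median to -0.02. With TMM, 5 of the 9 tested members passed, all-gene calls went from 321 higher and 253 lower to 216 higher and 350 lower, and the members' ratios ran from 1.71 (Calr) to 3.96 (Sdf2l1), each with an interval above 1. Hspa5 (1.85), Hsp90b1 (1.82) and Dnajb11 (1.80) then lay under the threshold, and Pdia4, Pdia6, Manf, Creld2 and Hyou1 stayed past it.

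Other measures moved with the knockout fibroblast-like cells. Their 10 own markers, none at 0 in any library, summed to 40943 CPM against 86628 in the young control and 48561 in the old control. Median mitochondrial share was 7.52% against 4.69% and 6.35%. Of 18 other marker lists, which include that of cycling cells, 5 were higher and 13 lower in the knockout. Of the higher ones, dermal papilla or sheath markers stood at 696 against 104 CPM and pericyte or smooth muscle markers at 670 against 465. Of the lower ones, keratinocyte markers stood at 389 against 2123 CPM and erythroid markers at 89.1 against 312. Dendritic markers, of the class with the highest level of 8 members in the young control, stood at 43.4 CPM in the knockout against 392. Cd207, Epcam, Flt3, Xcr1 and Clec9a were at 0 there, and macrophage markers stood at 27.9 against 125. In all, 47 of 186 markers on these lists were at 0 in the knockout, 5 in the young and 33 in the old control. Such zeros depend on the class totals, which were 1290862, 15412843 and 2581454 UMIs in the same order. They therefore do not compare the libraries for RNA of other cell types. Cytosolic heat shock genes, which respond to protein damage and to tissue dissociation, were higher too: Hspa1a stood at 1119 against 204 CPM and Hspa1b at 1449 against 163. In cells with no Hspa1a or Hspa1b UMI after thinning to 1500 UMIs (76 knockout and 1663 young control cells), 7 of the 10 members tested there passed, with a median ratio of 2.29, a setting chosen after seeing the data. The part of the lower own markers, of mitochondrial share and of dermal papilla markers in the members' levels was not tested.

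**Figure D2:**
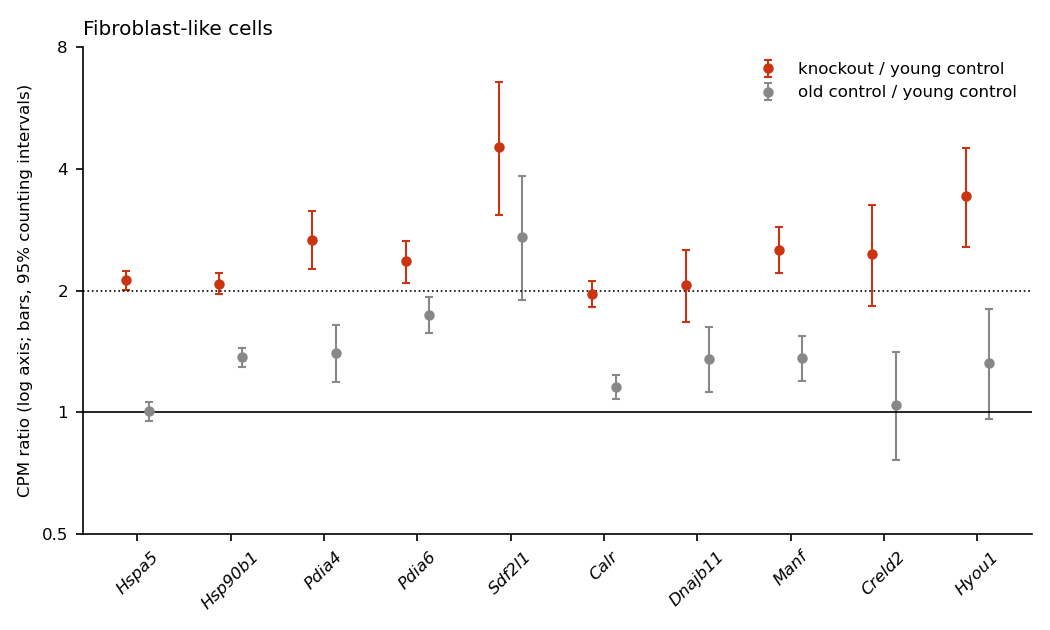
CPM ratio of the knockout (red) and of the old control (grey) to the young control for each member in fibroblast-like cells, on a log axis with 95% counting intervals. All 10 knockout intervals lie above 1, most points lie above the dotted line at 2, and every old control point lies below the knockout point of its gene.

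The difference was spread over the cells of the class: 84.7% of knockout cells lay above the young control median, against 45.8% of young control cells. With every cell thinned to 1500 UMIs, a fibroblast-like cell held a median of 5 member UMIs in the knockout (quartiles 3 and 8), against 2 for young (1 and 4) and 3 for old control cells (1 and 4). Means were 5.65, 2.61 and 3.06. Of the knockout cells, 44.4% lay above the 90th percentile of the young control cells, against 7.75% of young and 13.2% of old control cells. A Hspa5 UMI was present in 80.4% of thinned knockout cells (exact 95% interval 74.0 to 85.8), 53.0% of young control cells (51.0 to 54.9) and 55.1% of old control cells (50.4 to 59.7). Unthinned, these shares were 94.5%, 84.5% and 71.7%, at median depths of 5925, 5332 and 3478 UMIs. No class lacked Hspa5, so there is no cell type to set the share expected from free RNA. Thinning left out 10 knockout, 186 young and 130 old control cells that were shallower.

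**Figure D3:**
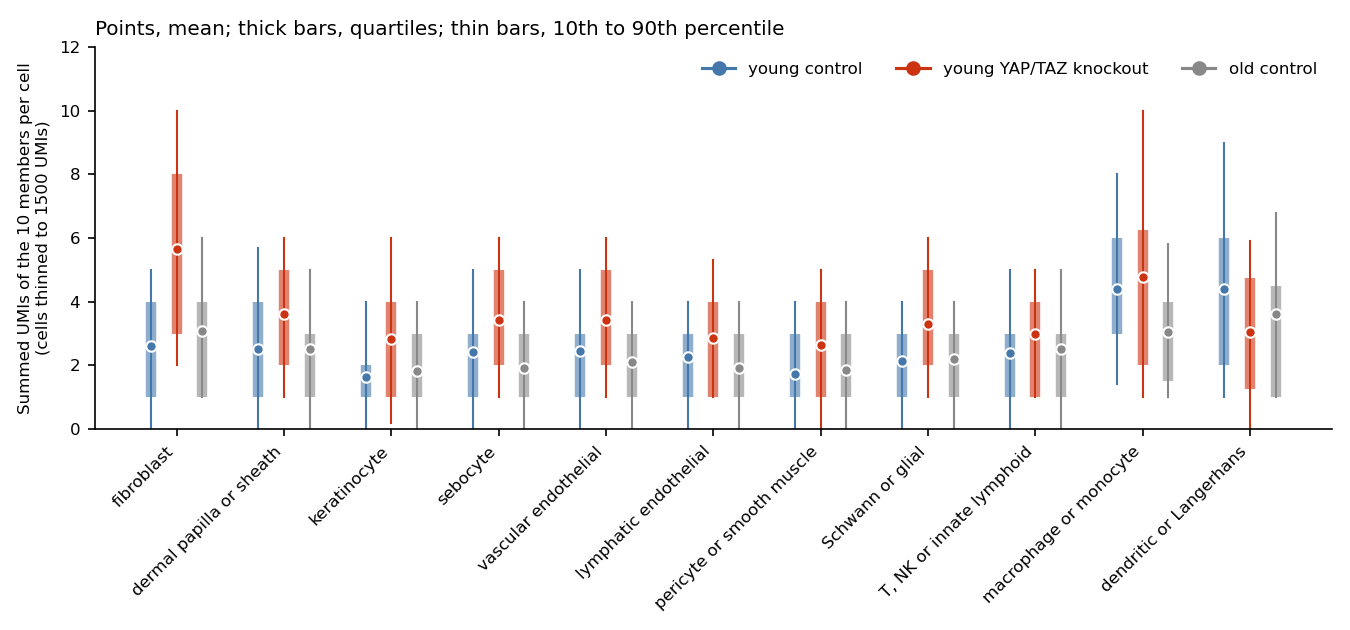
Summed UMIs of the 10 members per cell, each cell thinned to 1500 UMIs, by class and library (points are means, thick bars quartiles, thin bars the 10th to 90th percentile). Knockout fibroblast-like cells have the highest mean, 5.65, against 2.61 in the young and 3.06 in the old control.

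The fibroblast-like class was made of 4 clusters, and the members' median knockout ratio was above 1 in each of them, though not equally. The cluster led by Col1a2, Col1a1 and Mfap4 (70 knockout and 1359 young control cells) had a median member ratio of 2.99, with 10 of 10 intervals above 1. There Hspa5 stood at 1196 against 487 CPM and Pdia4 at 182 against 46.3. The cluster led by Coch, Igfbp2 and Fmod (76 and 466 cells) had a median of 2.31, with all 10 intervals above 1 and Hspa5 at 1235 against 571 CPM. In the cluster led by Gpx3, Dpt and C3 the knockout held 12 cells, the median was 2.53 and 8 intervals lay above 1. There 9 of 10 ratios were above 1 and the lowest was 0.411. The cluster led by Apod, Sfrp5 and Igfbp6 (41 and 165 cells) had the lowest median, 1.63, with 5 intervals above 1: Hspa5 stood at 1267 against 721 CPM, while Pdia4 (56.6 against 54.9 CPM) had an interval of its ratio from 0.523 to 1.96. Clusters were formed without the members and the listed pathway genes.

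Outside fibroblasts most members were also higher in the knockout. Over the other 8 classes with at least 50 cells in both libraries, 57 of 80 pairs of member and class had an interval above 1 and none had one below 1, but only 6 of the 66 pairs tested passed the size rule. How many pairs of any other genes would have such intervals was not counted. Sdf2l1 and Manf had their largest ratios in these classes, and Calr (0.933), Creld2 (0.882) and Hyou1 (0.682) had ratios below 1 in lymphatic endothelial-like cells, with intervals that held 1. Pdia6 passed in 3 of these classes. It rose in dermal papilla or sheath-like cells from 85.1 to 180 CPM (2.11-fold, 1.84 to 2.42), in lymphatic endothelial-like cells from 59.1 to 133 CPM (2.25-fold, 1.67 at the lower bound) and in pericyte or smooth muscle-like cells from 41.0 to 83.9 CPM (2.05-fold, 1.59 to 2.66). Manf rose in Schwann or glial-like cells from 50.8 to 141 CPM (2.77-fold, 2.21 to 3.49) and in pericyte or smooth muscle-like cells from 50.7 to 103 CPM (2.04-fold, 1.62 to 2.57). Hyou1 rose in dermal papilla or sheath-like cells from 23.7 to 54.1 CPM (2.28-fold, 1.77 to 2.97). Sdf2l1 had a ratio of 6.49 (3.04 to 15.9) in dermal papilla or sheath-like cells, where it was too low to be tested.

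Read against their backgrounds, 2 of 9 members passed in dermal papilla or sheath-like cells (background 5.18% higher), 2 of 7 in pericyte or smooth muscle-like (2.93%), 1 of 9 in Schwann or glial-like (3.21%) and 1 of 7 in lymphatic endothelial-like cells (1.46%). None passed in keratinocyte-like (0 of 7, 2.42%), sebocyte-like (0 of 9, 13.2%), vascular endothelial-like (0 of 8, 1.52%) or lymphoid-like cells (0 of 10, 2.92%). Keratinocyte-like cells still had all 10 intervals above 1, with a median ratio of 1.63. Their 139 knockout cells came mainly from the clusters led by Lhx2 (49 cells, median ratio 1.44 within the cluster), by Sprr1a (49 cells, 1.53) and by the cycling gene Cenpf (23 cells, 1.30), and the young control cells mainly from others. Cycling markers stood at 1068 CPM in the knockout keratinocyte-like cells against 345 in the young control, and the Cenpf cluster had a summed member level of 1750 CPM in the young control against 889 to 1224 in the other keratinocyte-like clusters. The part of this shift in the class ratio was not tested. The other medians were 1.74 in pericyte or smooth muscle-like, 1.71 in dermal papilla or sheath-like, 1.62 in vascular endothelial-like, 1.55 in Schwann or glial-like, 1.37 in sebocyte-like, 1.30 in lymphatic endothelial-like and 1.26 in lymphoid-like cells. Both pericyte or smooth muscle-like calls were lost in cells thinned to 1500 UMIs, under the stricter cell filter, with each library clustered alone and in cells without Hspa1a and Hspa1b UMIs. Both dermal papilla or sheath-like calls and the lymphatic endothelial-like call were lost in thinned cells, the latter also in cells without Hspa1a and Hspa1b UMIs. In sebocyte-like cells 3 members passed with each library clustered alone, 1 under the stricter filter and 1 in cells without those UMIs. Schwann or glial-like cells kept at least 1 call under each of the 7 alternatives run for these classes. Whether the ratio in fibroblasts exceeds that in another class was not tested, since each rests on the same pair of libraries.

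Some classes drew on different clusters in the 2 libraries. Knockout dermal papilla or sheath-like cells came almost wholly from a cluster led by a (agouti) and Slc26a7 with 898 knockout and 0 young control cells, and the young control's 200 cells from a cluster led by Notum and Pappa2 that held 10 knockout cells. Knockout sebocyte-like cells likewise lay in 2 clusters led by Elovl6 and Elovl4 with 3 young control cells in all. Pericyte or smooth muscle-like cells were mostly of the Actg2 and Mylk cluster in the knockout and of the Rgs5 and Notch3 cluster in the young control. Within those clusters the members' median ratios were 1.78 and 1.62. The vascular endothelial-like class held only 94 knockout cells. Clusters led by Ifit1 and Selp (1562 knockout cells) and by Gkn3 (1247) scored highest for vascular endothelial markers. Both stayed unnamed, as pericyte or smooth muscle markers were also high or scored too close. Their summed member levels in the knockout were 2057 and 2042 CPM, and the class values leave them out.

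Immune classes with few knockout cells are given as values only. In 41 knockout macrophage-like cells the median ratio was 1.03, with Hspa5 at 1142 against 1103 CPM. In 23 knockout dendritic-like cells it was 0.795, and 4 intervals lay below 1: Hsp90b1 (494 against 716 CPM), Pdia4 (20.9 against 69.3), Pdia6 (125 against 214) and Calr (468 against 578). Among named classes of the young control, each member had its highest level in 1 of these 2 classes.

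Inducible cytosolic chaperones, which answer protein damage outside the ER, are set beside the members by class. Hspa1a and Hspa1b stood 5.49-fold and 8.86-fold above the young control in fibroblast-like cells, 10.4-fold and 9.46-fold in lymphoid-like cells and 7.03-fold and 5.25-fold in vascular endothelial-like cells. In keratinocyte-like cells both were below the young control, at 0.752 and 0.720, while the members' median ratio there was 1.63. In dermal papilla or sheath-like cells they stood at 1.09 and 1.61, beside a members' median of 1.71. Values were 2.60 and 2.17 in sebocyte-like and 7.36 and 4.82 in lymphatic endothelial-like cells. They were 1.44 and 1.89 in pericyte or smooth muscle-like and 3.57 and 6.35 in Schwann or glial-like cells. The whole list of 19 cytosolic heat shock chaperones was higher than these 2 genes alone show in keratinocyte-like cells. Its median ratio was 1.30 there, with 13 genes above 1, and 1.27 in dermal papilla or sheath-like cells, with 14 above 1.

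**Figure D4:**
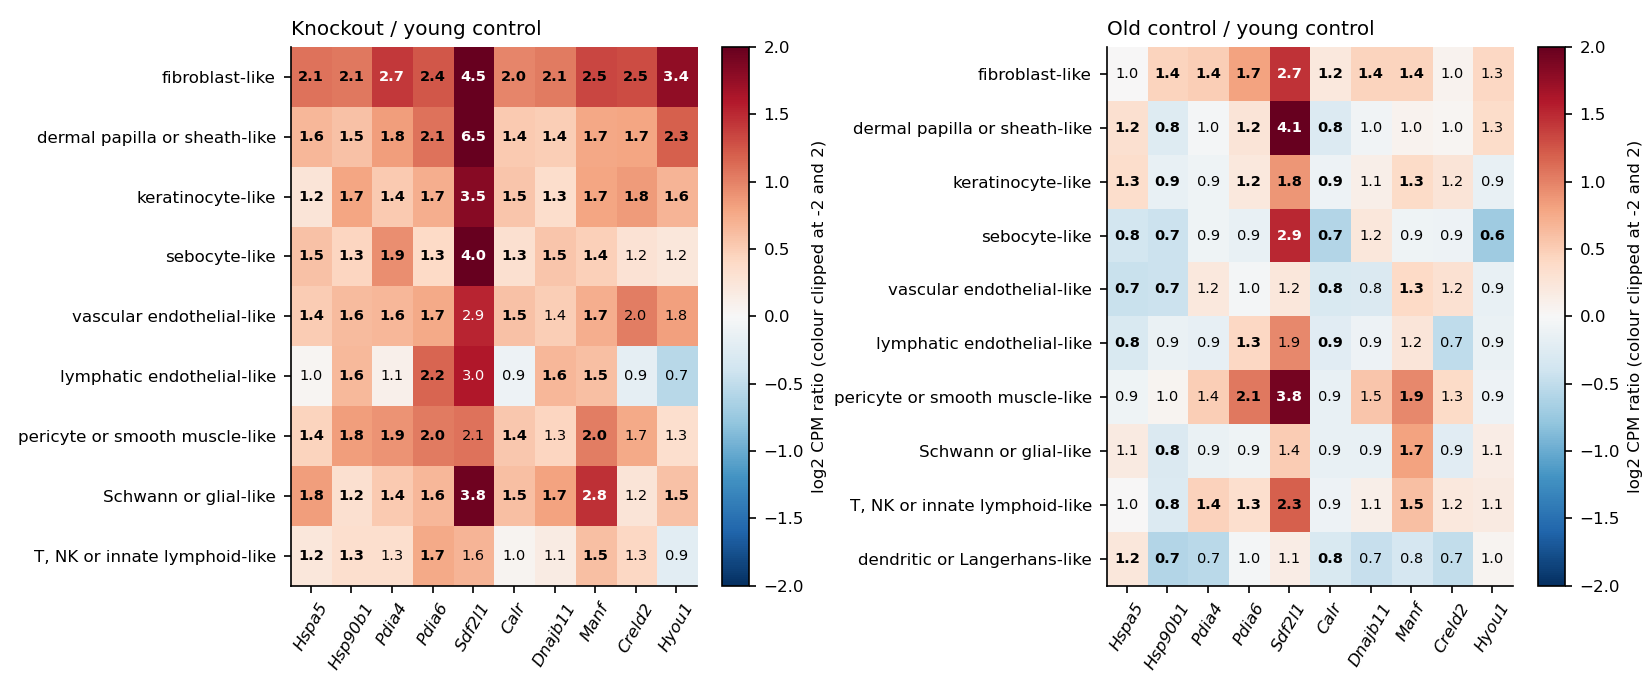
CPM ratio of each member to the young control by class, in the knockout (left) and the old control (right). Colour shows the log2 ratio, clipped at -2 and 2, printed values are ratios, and bold marks a 95% counting interval that excludes 1. The knockout panel is red nearly throughout and deepest in the fibroblast-like row, while the old control panel holds both colours.

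The old control was compared with the same young control library, so the ratios to it share their denominator with those of the knockout. In fibroblast-like cells none of the 9 members tested passed (background 1.52% of genes higher and 1.94% lower), while 7 of 10 intervals lay above 1. The median ratio was 1.36, and 0.44 as a median log2 ratio against 0.03 for all genes tested. Pdia6 stood at 189 against 108 CPM (1.74-fold, 1.57 to 1.93), Hsp90b1 at 632 against 462 (1.37-fold, interval 1.3 to 1.44) and Manf at 118 against 86.9 (1.36-fold, interval 1.2 to 1.54). Sdf2l1, not tested, stood at 19.0 against 7.01 CPM (2.71-fold, 1.89 to 3.83). Hspa5 (1.01-fold, 0.952 to 1.06), Creld2 (1.05-fold, 0.761 to 1.41) and Hyou1 (1.33-fold, 0.963 to 1.80) had intervals that held 1.

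Old fibroblast clusters differed from each other. In the Col1a2, Col1a1 and Mfap4 cluster (212 old and 1359 young control cells) the median ratio was 1.72 and 9 intervals lay above 1, with Hsp90b1 at 752 against 436 CPM, Pdia6 at 216 against 96.5 and Calr at 468 against 342. In the Coch, Igfbp2 and Fmod cluster (256 and 466 cells) the median was 0.885, and Hsp90b1 (417 against 594 CPM, 0.703-fold, 0.619 to 0.797) and Calr (310 against 411 CPM, 0.754-fold, 0.649 to 0.873) lay below the young control. The Apod, Sfrp5 and Igfbp6 cluster had a median of 0.953 and the Gpx3, Dpt and C3 cluster, with 32 old cells, 1.39. The class value therefore averages clusters that stood on opposite sides of the young control for Hsp90b1 and Calr.

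Across the 10 classes compared, 26 of 100 pairs of member and class had an interval above 1 in the old control and 17 one below 1. No share over all genes was computed for these intervals. A single pair of 85 tested passed: Sdf2l1 rose in lymphoid-like cells from 27.0 to 62.2 CPM, a ratio of 2.30 (1.70 to 3.12), which was 1 of 10 members against a background of 3.27%, and no member passed there in cells thinned to 1500 UMIs. Backgrounds of higher calls in the other old classes, with no member past the rule, were 2.75% in dermal papilla or sheath-like, 0.818% in keratinocyte-like, 6.64% in sebocyte-like, 3.67% in vascular endothelial-like, 2.36% in lymphatic endothelial-like, 3.62% in pericyte or smooth muscle-like, 2.89% in Schwann or glial-like and 1.42% in dendritic-like cells. Hsp90b1 had an interval below 1 in 7 of the 10 classes, from 0.665 in dendritic-like to 0.897 in keratinocyte-like cells, and above 1 in fibroblast-like cells alone. Calr had one below 1 in 6 classes, lowest in sebocyte-like cells (260 against 390 CPM, 0.665-fold), and above 1 in fibroblast-like cells alone. In most of these classes the median gene tested was lower too, at -0.120 (log2) in keratinocyte-like and -0.148 in lymphatic endothelial-like cells. With TMM factors the keratinocyte-like ratio of Hsp90b1 was 0.943. The part of this shift in the lower ratios of Hsp90b1 and Calr was not tested. Sdf2l1 had a ratio above 1 in all 10 classes, and Manf an interval above 1 in 6. Class medians ran from 0.801 in dendritic-like to 1.36 in fibroblast-like and pericyte or smooth muscle-like cells.

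The other genes of ER folding and its stress response were read from 9 lists (155 genes), for genes with a mean of at least 5 CPM, in knockout against young control fibroblast-like cells. The background for the list counts is that of the class, 5.14% of genes higher and 4.05% lower. Of the UPR sensors and transcription factors, 1 of 10 tested passed: Nfe2l1, an ER-anchored factor of proteasome genes, rose from 104 to 215 CPM (2.08-fold). The list's median ratio was 0.916. The sensors Ern1 (0.787), Eif2ak3 (0.762) and Atf6 (0.916) had ratios below 1 with intervals that held 1. Xbp1 stood at 240 against 211 CPM (1.14-fold, 1.01 to 1.28) and Atf4 at 416 against 469 (0.887-fold). Ddit3 (CHOP) stood at 94.5 against 58.1 CPM (1.63-fold, 1.33 to 1.97). Atf6b (2.04) and Mbtps2 (0.429) were too low to be tested, and Mbtps1 (0.843), Creb3 (0.819), Creb3l1 (1.38) and Creb3l2 (1.03) did not pass. Counts per gene do not show Xbp1 splicing or cleavage of Atf6.

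The other ER folding lists had lower medians than the members. Of the other disulfide isomerases and oxidases, 0 of 12 passed and the median was 1.18, with Pdia3 (1.77), Tmx4 (1.5), Tmx3 (1.35) and Txndc11 (1.34) highest. P4hb, which is both a disulfide isomerase and a subunit of collagen prolyl hydroxylase, stood at 315 against 308 CPM (1.02-fold, 0.922 to 1.13). Tmx1 (0.899) and Txndc5 (0.988) were lowest. Of the other chaperones, cochaperones and lectins, 1 of 16 passed: Fkbp2, an ER prolyl isomerase, rose from 58.8 to 142 CPM (2.42-fold), ahead of Dnajc3 (1.66), Canx (1.58) and Dnajc25 (1.53), while Rcn3 (0.749) and Rcn1 (0.795) were lowest. The median there was 1.13.

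ER-associated degradation had 0 of 14 past the rule and a median of 1.09. Derl2 (1.44), Selenos (1.39) and Vcp (1.38) were among the highest, and Edem2 (0.284) and Herpud1 (0.610), whose product helps assemble the degradation complex, were lowest, Herpud1 at 114 against 187 CPM. Translocation and signal peptide processing had 0 of 19 and a median of 1.31, with Sec61b (1.98) and Spcs3 (1.95) close to the threshold, Spcs2 at 1.70 and Sec63 at 1.52, and Ssr3 (0.953) and Sec62 (1.0) lowest. Collagen folding and hydroxylation had 0 of 14 and a median of 1.02. Its collagen chaperone Serpinh1 (HSP47) stood at 1408 against 1360 CPM (1.04-fold, 0.986 to 1.09). Tmem38b (1.68), P4ha1 (1.56), Plod2 (1.51) and Fkbp14 (1.36) were highest there, and Fkbp9 (0.568) and Crtap (0.677) lowest. The members' median of 2.41 stood above that of each of these lists, but members and lists were chosen with earlier results of these data known.

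Of ATF4 and CHOP targets, 1 of 10 passed in each direction, Ddit4 at 69.7 against 20.1 CPM (3.48-fold) and Nupr1 at 313 against 652 (0.480-fold), and the median was 1.62. Both are also known from stress responses other than that of the ER. Vldlr (3.04), Sesn2 (1.81) and Ppp1r15a (1.72) followed Ddit4, and Aldh18a1 (0.559) stood next to Nupr1. Vldlr did not pass the size rule although its ratio lay above 2. Among cytosolic heat shock chaperones 7 of 19 passed: Hspa1b, Hspa1a, Hsph1 (6.57-fold), Hspb1 (3.84), Hsp90aa1 (2.27), Dnaja1 (2.13) and Stip1 (2.02), with Hsf1 (0.780) and Bag3 (1.04) lowest and a median of 1.80. On the list of immediate-early and dissociation stress genes, 2 of 21 rose, Hspa1a and Hspa1b, which it shares with the heat shock list. Nr4a1 (1.90) and Btg2 (1.69) were next highest. Klf4 (0.481) and Myc (0.413) passed as lower, and the median over the 21 genes was 0.861. The part of dissociation in these values was not tested. In old control fibroblast-like cells 1 of the same tested list genes passed, Fkbp2, at 134 against 58.8 CPM (2.27-fold), beside a background of 1.52% of genes higher.

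**Figure D5:**
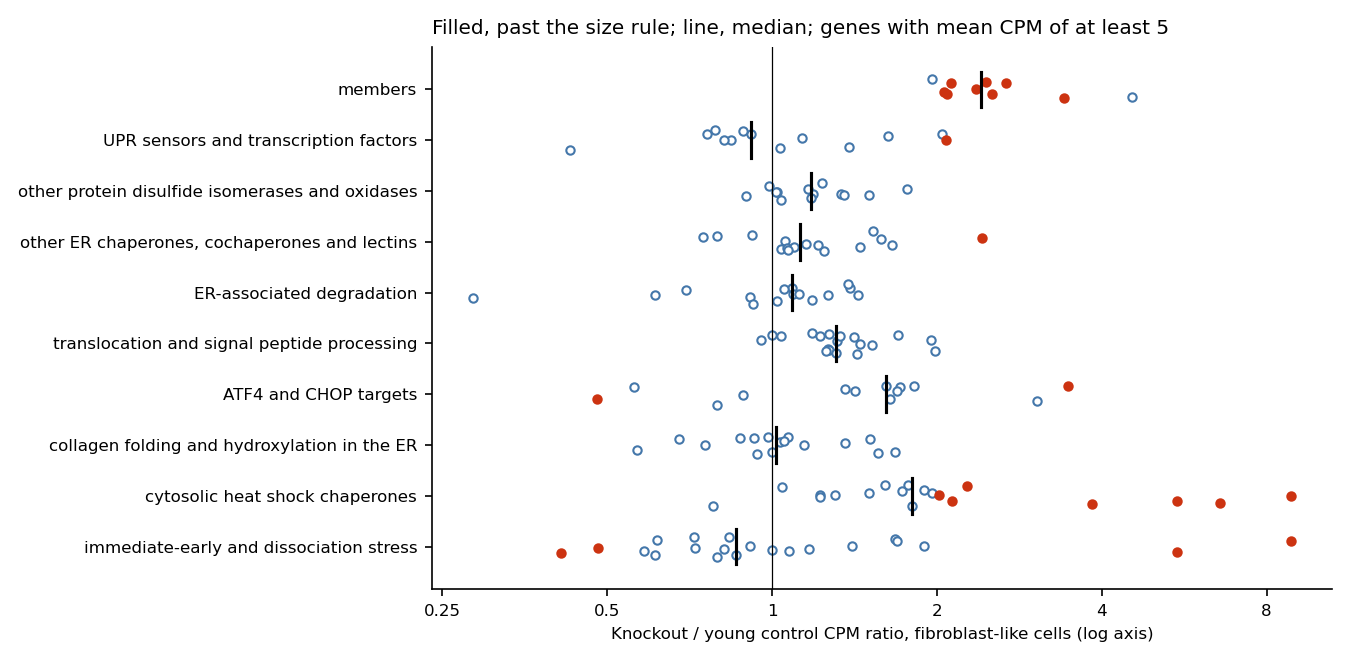
Knockout to young control CPM ratio (log axis) in fibroblast-like cells for the members and the 9 lists, for genes with a mean of at least 5 CPM. Filled points passed the size rule and black lines are list medians. The members' median of 2.41 lies to the right of all others, with cytosolic heat shock chaperones next at 1.80. Members and lists were chosen with earlier results of these data known.

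The ratios are set here beside the promoter windows. The members with a match had knockout ratios in fibroblast-like cells of 1.96 (Calr), 2.08 (Hsp90b1), 2.12 (Hspa5), 2.36 (Pdia6) and 2.46 (Creld2), and those without one of 2.06 (Dnajb11), 2.67 (Pdia4) and 4.53 (Sdf2l1). Among the listed genes Canx (1.58), Dnajc3 (1.66) and Syvn1 (0.913) also held ERSE, and none of them passed. Over all genes with ERSE and no membership, 25 were found in the matrices and 4 tested, namely Canx, Dnajc3, Syvn1 and Hnrnpa3. Of these only Hnrnpa3 rose (358 against 164 CPM, 2.19-fold), beside a background of 5.14% of genes higher. The median ratio of the 4 was 1.62, and 3 of their intervals lay above 1, among them Canx (1.44 to 1.74) and Dnajc3 (1.48 to 1.85).

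The members varied together across classes and libraries. Over 31 combinations of class and library with at least 50 cells, the correlation of each member's log2 level with the mean of the other 9 ran from 0.638 (Sdf2l1) to 0.847 (Calr). These combinations share libraries, depth and the 3 groups, and the values are a description. The genes most like the members' mean, among 6986 compared, were Pdia3 (Pearson's r 0.911) and Sec61b (0.834), followed by Btbd1 (0.747), Chmp4b (0.714), Spcs3 (0.696), Ostc (0.683), Snx3 (0.667), Clint1 (0.666), Mapk6 (0.640) and Serp1 (0.638). Spcs2 (0.636), Cib1 (0.635), Pi4k2a (0.632), Arpc1b (0.626) and Eif4e2 (0.619) completed the first 15. The 6986 include genes then left out of the ranking. These were the members, mitochondrial and ribosomal protein genes, Xist and Y-linked genes, unnamed gene models and genes sharing a symbol. Pdia3 is the disulfide isomerase that partners calreticulin, Sec61b is a subunit of the ER translocon, and Spcs2 and Spcs3 belong to the signal peptidase.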

How the data were processed

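The deposited values are raw UMI counts, per the file headers from Cell Ranger 3.1.0. The submitters' processing notes also name mm10 and Seurat 3.1.5. The sources used here do not say how barcodes were chosen before deposit. Young control, knockout and old control contributed 15290, 25348 and 22108 barcodes and 95274423, 57767761 and 52579262 UMIs. Barcodes under 500 genes, under 1000 UMIs or over 15% mitochondrial UMIs were dropped. Scrublet's automatic threshold marked 2.82%, 0% and 0.00828% of them and had not worked in the knockout and old libraries, so the top 8% of scores per library were dropped.

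Cells were clustered together in scanpy 1.11.5 on 2000 variable genes, 30 principal components and 20 neighbours (Leiden, resolution 1), with the members and all listed pathway genes kept out. Clusters were named from fixed markers. The thresholds for naming were chosen with the cluster tables in view. A class was compared where both libraries held at least 50 cells. Log2 ratios add 0.5 count.

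All 10 members are named. Of each list, the genes past the size rule, the 4 largest and 2 smallest ratios and all UPR sensors and factors are named, with other list genes named after their values were seen, and the 15 genes most like the members' mean. One gene that this rule takes is not reported here. The members, lists, size rule and doublet step were chosen with earlier results of these data known. Alternatives covered scaling (TMM from edgeR 4.0.16 and median-of-ratios), totals, depth, cell filters, doublets, free RNA (5% of each class profile), clustering and the size rule. The calculation of ratios and calls was tested on simulated data.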

Additional observations from a re-analysis of the deposited data

How the results depend on the processing

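The count of members past the size rule was recomputed under 14 alternatives, and 3 more chosen after seeing the data, in fibroblast-like, keratinocyte-like and vascular endothelial-like cells for both comparisons. Of these 102 values, 87 stayed within 1.5 times the count reported and 15 did not. For knockout fibroblast-like cells the count of 8 became 5 with TMM factors, 5 with median-of-ratios factors and 5 in cells thinned to 1500 UMIs, and was 7 to 9 elsewhere. Fewer UMIs are counted after thinning, and for both scalings the median of all genes moves; other causes were not tested. For old fibroblast-like cells the count of 0 became 1 with totals without mitochondrial and ribosomal protein genes, in thinned cells, with list genes allowed among the variable genes, at Leiden resolutions 0.5 and 2, at a mean CPM of at least 5, with a 1.5-fold rule and in cells without Hspa1a and Hspa1b UMIs. For knockout keratinocyte-like cells the count of 0 became 1 in thinned cells, 1 at a mean CPM of at least 5 and 3 with the 1.5-fold rule, and for knockout vascular endothelial-like cells 4 with the 1.5-fold rule. The members' median knockout ratio was above 1 in all 51 settings of the 3 classes, and ran from 2.11 to 2.68 in fibroblast-like cells. Of 300 member ratios in fibroblast-like cells under the alternatives, 255 stayed inside the counting interval of the ratio reported and 45 did not. All 150 knockout ratios stayed above 1. The old control ratios of Hspa5 (0.938 to 1.06) and Creld2 (0.924 to 1.16) lay on both sides of 1. Knockout ratios ran from 1.85 to 2.28 for Hspa5, 1.80 to 3.36 for Pdia4 and 2.39 to 4.09 for Hyou1.

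No paired analysis was possible because each group has 1 library. No replicate was left out for the same reason, and the spread between mice is unknown. The knockout class of 199 cells and 1290862 UMIs limits Sdf2l1, Creld2 and Hyou1 most, with 41, 60 and 67 UMIs.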
